A study of Mus musculus with 2 samples.

Results

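Read clusters on the mitochondrial genome were taken from iCLIP of FAM120A in mouse embryonic stem cells, and their ribosomal and messenger RNAs were compared. FAM120A binds RNA and is found together with Argonaute 2. iCLIP crosslinks a protein to its RNA with ultraviolet light, recovers it with antibodies and sequences the RNA that comes with it. The members were all clusters on chrM, 55 of 11670 in the list of the tagged library and 5 of 1134 in that of the untagged library. Plus-strand clusters were assigned by their midpoint to mt-Rnr1 (positions 70 to 1024), mt-Rnr2 (1094 to 2675), mt-Nd1 (2751 to 3707), mt-Nd2 (3914 to 4951) or mt-Co1 (5328 to 6872). All clusters assigned to these genes lay wholly inside them. The rest fell into other plus-strand positions and the minus strand. Positions are those of build mm9.

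The study held 2 libraries, 1 per group. The tagged line, TT-FHFam120a, expressed FLAG-HA-Fam120a from a doxycycline-inducible pSLIK lentiviral construct. The untagged line, TT-Fam120a, expressed Fam120a without the epitopes from the same system, so its library gave the background of the FLAG and HA immunoprecipitations. Both lines received doxycycline at 2.5 µg/mL, and both groups differ from unmodified cells in carrying an induced Fam120a construct. The labels' protocols give partial digestion with RNase I and recovery of complexes from a membrane at the size of crosslinked FAM120A. With 1 library per group no difference could be checked in a replicate, and the groups were not tested against each other.

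The mitochondrial genome is transcribed into long precursors, which are cut, mainly at the tRNAs that lie between the other genes, into ribosomal, messenger and transfer RNAs. mt-Rnr1 and mt-Rnr2 are the RNAs of the small and large subunits of the mitochondrial ribosome. The messenger RNAs encode subunits of the respiratory chain and of ATP synthase, and they are translated inside the organelle. mt-Nd1 and mt-Nd2 encode subunits of complex I, and mt-Co1 encodes the catalytic subunit of complex IV. The ribosomal RNAs and all of the messenger RNAs but ND6 come from the plus strand, and ND6 is the messenger RNA that comes from the minus strand.

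Each deposited cluster carries its reads in its own library, a log2 ratio of own over other reads after adding 1 to each, and the p of a one-sided exact binomial test at an even split. From these values, other-library reads were worked out for each cluster. In the tagged list the untagged reads recovered in this way were rounded multiples of about 1.501 at all clusters but 1, which is not mitochondrial. This number was taken as the authors' factor for depth, and the recovered reads are called scaled untagged reads below. Total depth is unknown. Clusters close together can share reads, so reads were not summed. The clusters were chosen by these same reads and ratios: each list was selected on its ratio and p, and the RNAs were set apart by their reads and ratios. Comparisons of these values are therefore descriptions, with no test.

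The ribosomal RNAs had many reads in both libraries and small ratios, and the messenger RNAs had few reads and larger ratios. Each class had 17 tagged-list clusters. On the ribosomal RNAs the clusters held 23 to 380 tagged reads (median 206) against 3 to 321 scaled untagged reads (median 143). On mt-Nd1, mt-Nd2 and mt-Co1 they held 5 to 64 tagged reads (median 13) against 0 to 26 (median 3). In reads, 14 of the 17 messenger clusters lay below every ribosomal cluster, and 12 of the 17 ribosomal clusters lay above every messenger cluster. The median log2 ratio was 0.68 on the ribosomal RNAs (95% interval of the median from order statistics 0.46 to 1) and 2.46 on the messenger RNAs (1.65 to 3). The ranges, 0.24 to 2.86 and 1.11 to 3.81, overlapped. Clusters of 1 RNA are not independent replicates, and such intervals describe only the spread over clusters.

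The read number limits which ratios could be listed. A cluster of 5 reads passes a p of 0.05 only with 0 scaled reads in the other library, which is a log2 ratio of 2.58. A cluster of 21 reads passes with up to 10, a log2 ratio of 1, and a cluster of 369 reads with up to 324, a log2 ratio of 0.19. For the messenger clusters this lowest possible log2 ratio ran from 0.5 to 2.81, and for the ribosomal clusters from 0.18 to 0.88. The distance of the listed log2 ratio above that limit had a median of 0.74 for the messenger clusters (0 to 2.59) and of 0.42 for the ribosomal clusters (0.04 to 2.09). The difference between the classes was thus smaller on this scale than in the ratios themselves, and both classes had clusters at or next to the limit. This distance is itself bounded by the read number. At 5 or 6 reads it can only be 0, and at 10 reads it cannot exceed 2, while clusters with more reads can lie further above. The smaller difference therefore does not show how much of the difference in ratios came from the limit, which was not tested.

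**Figure D1:**
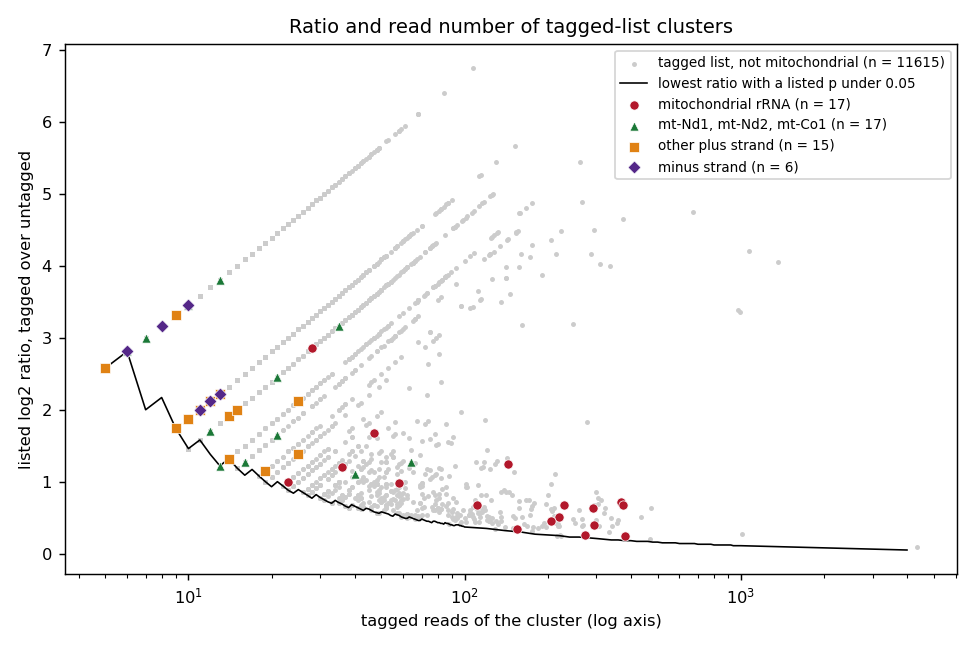
Listed log2 ratio of tagged over untagged reads (vertical axis) against tagged reads of the cluster (horizontal log axis) for tagged-list clusters. Grey points are the 11615 clusters off the mitochondrial genome, coloured points the mitochondrial classes (some coincide), and the line is the lowest ratio with a p under 0.05. Ribosomal clusters sit at the right and low, between 23 and 380 reads, and messenger clusters at the left, between 5 and 64.

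Above 9 reads, the median ratio of mitochondrial clusters lay below that of the other tagged-list clusters of similar read number. At 5 to 9 reads, where the limit sets most values, the 3 messenger clusters and the 6620 clusters off the mitochondrial genome both had a median log2 ratio of 2.81. At 10 to 19 reads the median was 2.12 for the 8 messenger clusters (range 1.22 to 3.81) and 2.66 for the 3025 other clusters. At 20 to 49 reads it was 1.44 for the 4 ribosomal clusters (1 to 2.86), 2.46 for the 5 messenger clusters (1.11 to 3.17) and 2.94 for the 1413 others. At 100 or more reads it was 0.57 for the 12 ribosomal clusters (range 0.24 to 1.25, 95% interval of the median 0.34 to 0.68). For the 195 others it was 0.81 (95% interval 0.65 to 1.11), and these 2 intervals overlapped. The ranges of the ribosomal and messenger clusters overlapped at 20 to 49 reads, the class that held several of both.

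Of the 55 tagged-list clusters, 43 (78.2%) had a log2 ratio of at least 1, against 96.8% of the whole tagged list. All 17 messenger clusters and 5 of the 17 ribosomal clusters were among them. In the list as a whole the share was 81.4% at 20 or more reads. All 17 ribosomal clusters had that many, and 5 of them had such a ratio. Of the messenger clusters 6 had that many, and all 6 had such a ratio. At 100 or more reads the share was 41.1% in the list, against 1 of 12 ribosomal clusters, and 0 messenger clusters were that deep. A log2 ratio of 2 or more was found at 26 mitochondrial clusters (47.3%), of which 11 were messenger and 1 ribosomal, against 85.9% of the list. At 3 or more these numbers were 8 (14.5%), 5 and 0, against 38.7% of the list. The untagged library had 0 reads at 12 clusters (21.8%), 6 of them messenger and 0 ribosomal, against 69.9% of the list. At least 100 reads were listed for 12 ribosomal clusters and 0 of the other mitochondrial clusters, against 1.77% of the list.

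The authors' test took the scaled reads as counts. Exact 95% binomial (Clopper-Pearson) intervals were therefore formed from unscaled reads and divided by that factor. They allow for counting error alone, because it is unknown whether each read is a separate molecule. The interval lay above a ratio of 1 for 37 of the 55 clusters (67.3%), against 46.2% of the whole list, a share that depends on how many reads a cluster holds. It did so for 13 of 17 ribosomal and 11 of 17 messenger clusters. These intervals are bounded on both sides, which is a stricter limit than the one-sided p used for listing. In both classes the intervals of a part of the listed clusters thus included an even ratio. How much of this came from the stricter limit and how much from the scaled reads was not tested.

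mt-Rnr1, the RNA of the small ribosomal subunit, held 6 tagged-list clusters in 2 blocks, 4 at positions 334 to 513 and 2 at 799 to 852. In the first block the tagged and scaled untagged reads were 219 and 153 at positions 334 to 359, and 47 and 14 at 393 to 418. They were 369 and 224 at 457 to 482, and 272 and 227 at 488 to 513. In the second block they were 111 and 69 at 799 to 824, and 155 and 122 at 827 to 852. The tagged reads were higher at each of the 6, as the listing requires, and over the 6 the tagged reads were highest at 457 to 482 and the scaled untagged reads at 488 to 513. The cluster with the most tagged reads, at 457 to 482, had a depth-adjusted ratio of 1.65 (1.36 to 2.01). The highest ratio was at 393 to 418, the cluster with the fewest reads, with 3.48 (1.69 to 8.08). At 488 to 513 the ratio was 1.2 with an interval of 0.98 to 1.47, which includes 1. The median log2 ratio of the 6 clusters was 0.6 (range 0.26 to 1.68).

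mt-Rnr2, the RNA of the large subunit, held 11 tagged-list clusters and all 5 mitochondrial clusters of the untagged list. The tagged-list clusters covered 433 nt, or 27.4% of the gene, against 156 nt or 16.3% in mt-Rnr1. Near the 5′ end the tagged and scaled untagged reads were 23 and 11 at positions 1119 to 1144, 380 and 321 at 1150 to 1230, and 206 and 149 at 1234 to 1259. They were 229 and 143 at 1271 to 1296, and 375 and 233 at 1310 to 1378. Both libraries were high over this stretch, apart from its first cluster. The cluster at 1150 to 1230 had the most tagged reads of all mitochondrial clusters and the lowest log2 ratio, 0.24, with a depth-adjusted ratio of 1.18 (0.998 to 1.41).

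Further along mt-Rnr2 there were 36 tagged and 15 scaled untagged reads at positions 1493 to 1518, and 28 and 3 at 1659 to 1684. They were 144 and 60 at 1765 to 1804, 292 and 188 at 1857 to 1882, and 295 and 224 at 1890 to 1950. The cluster at 1659 to 1684 had the highest ratio on either ribosomal RNA, a log2 ratio of 2.86 and a depth-adjusted ratio of 9.33 (2.35 to 80.8), which rests on 2 untagged reads before scaling. The next highest depth-adjusted ratio in mt-Rnr2 was 2.4, shared by the clusters at 1493 to 1518 (1.17 to 5.42) and 1765 to 1804 (1.68 to 3.5). The median log2 ratio of the 11 clusters was 0.68.

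**Figure D2:**
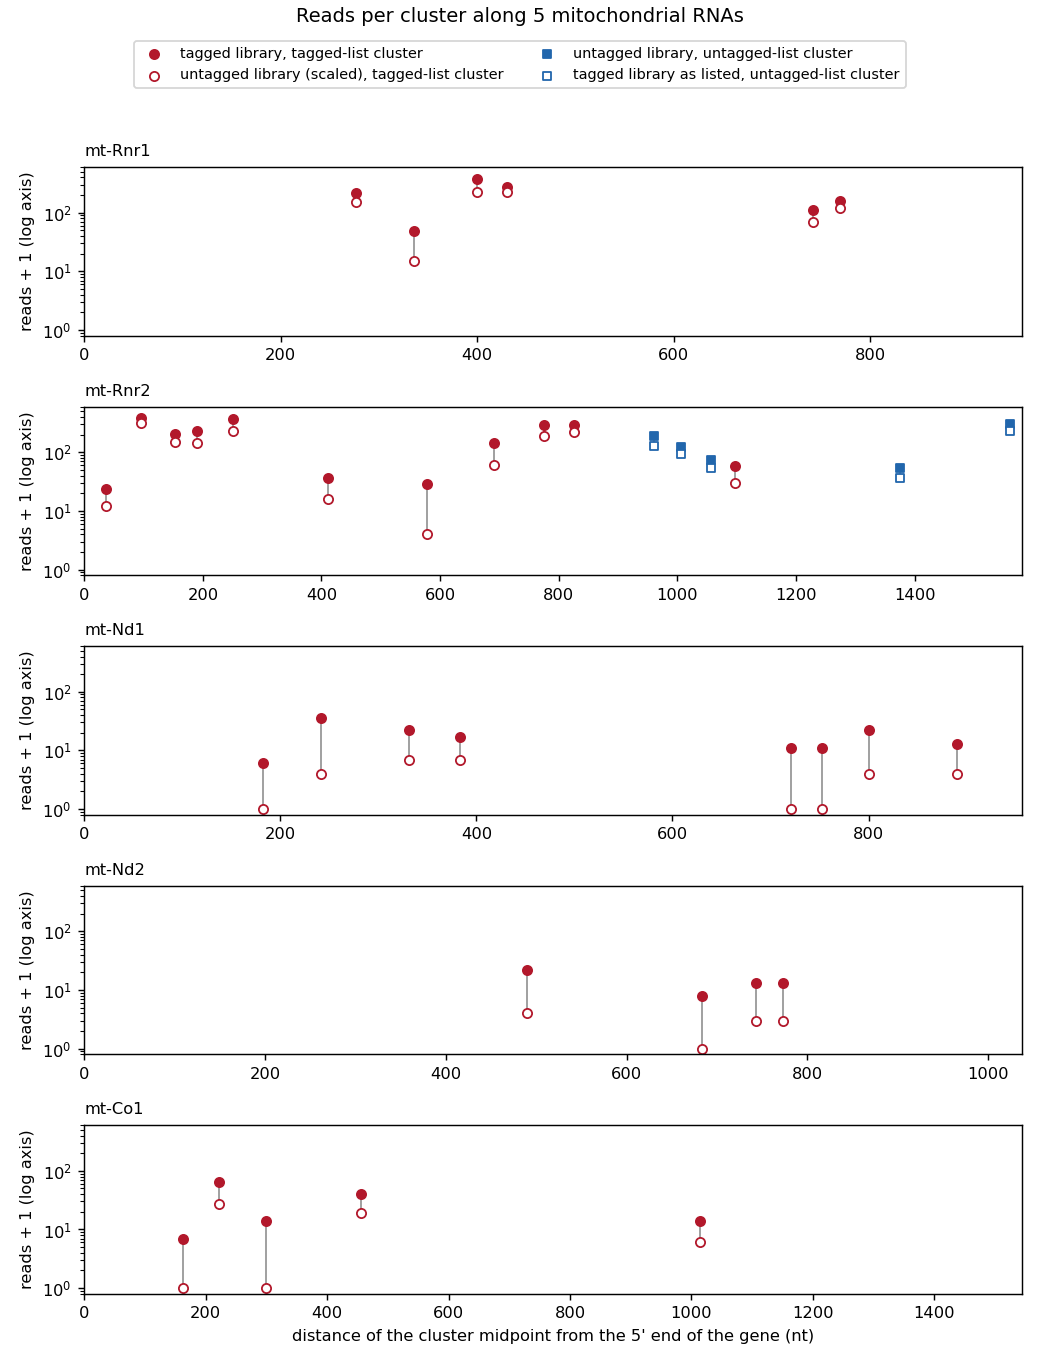
Reads plus 1 (log axis) of each cluster against the distance of its midpoint from the 5′ end of the gene in nt, for 5 mitochondrial RNAs. Filled circles are tagged reads and open circles scaled untagged reads of tagged-list clusters, and squares are untagged-list clusters with untagged reads filled and tagged reads as listed open. The ribosomal RNAs reach 380 tagged reads, with pairs of symbols close together at most clusters, and the messenger RNAs reach 64.

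The direction of the listed difference changed along mt-Rnr2. The first 10 tagged-list clusters ended at position 1950, and the first untagged-list cluster began at 2029, 78 nt further on. Midpoints of those 10 lay within the first 52.2% of the gene, and those of the untagged-list clusters between 60.7% and 98.6%. The untagged and tagged reads listed were 192 and 125 at positions 2029 to 2079, 124 and 91 at 2087 to 2112, and 74 and 53 at 2139 to 2164. They were 53 and 36 at 2457 to 2482, and 300 and 228 at 2642 to 2667, which ends 8 nt before the 3′ end of the gene. These differences were small, with log2 ratios of untagged over tagged reads of 0.39 to 0.62 (median 0.47).

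No untagged-list cluster of mt-Rnr2 had a log2 ratio of 1 or more (0 of 5), against 65.7% of the whole untagged list. Whether the tagged reads were scaled there cannot be seen from the values, because all whole numbers from 0 to 50 occur, whereas 17 of them are missing in the tagged list. Taking the listed numbers as counts, the exact interval lay above 1 for 3 of the 5, as at 2029 to 2079 with 1.54 (1.22 to 1.94) and at 2642 to 2667 with 1.32 (1.1 to 1.57). At 2139 to 2164 the ratio was 1.4 (0.968 to 2.03).

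The remaining tagged-list cluster of mt-Rnr2 lay among the untagged-list ones, at positions 2178 to 2203, 13 nt beyond the one at 2139 to 2164. It held 58 tagged against 29 scaled untagged reads, and its depth-adjusted ratio was 2.03 (1.19 to 3.62). Neighbouring clusters of this RNA thus went opposite ways within a short distance, with intervals of which one included 1. The split of mt-Rnr2 was seen in 1 pair of libraries, and it was not tested.

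**Figure D3:**
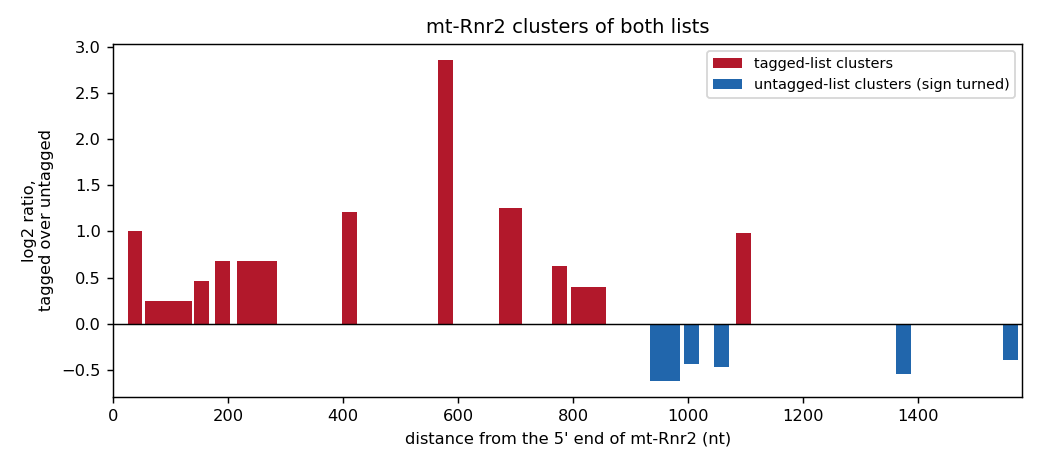
Listed log2 ratio of tagged over untagged reads (vertical axis) along mt-Rnr2, as distance from its 5′ end in nt, with each bar as wide as its cluster. Red bars are the 11 tagged-list clusters, between 0.24 and 2.86, and blue bars the 5 untagged-list clusters with the sign turned, all beyond the first 10 red bars.

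mt-Nd1 held 8 tagged-list clusters, the most of the messenger RNAs, at 8.36 per kb of gene against 3.85 in mt-Nd2 and 3.24 in mt-Co1. Merging clusters within 50 nt left 3 stretches in mt-Nd1, 2 in mt-Nd2 and 4 in mt-Co1. In the 5′ part of mt-Nd1 the tagged and scaled untagged reads were 5 and 0 at positions 2921 to 2946, 35 and 3 at 2972 to 3012, 21 and 6 at 3051 to 3114, and 16 and 6 at 3122 to 3147. In the 3′ part they were 10 and 0 at 3459 to 3484, 10 and 0 at 3491 to 3516, 21 and 3 at 3539 to 3564, and 12 and 3 at 3629 to 3654. Scaled untagged reads were thus between 0 and 6 at these 8 clusters, which cover 27.3% of the gene and were listed for their low untagged reads.

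The mt-Nd1 cluster with the most reads, at 2972 to 3012, had a depth-adjusted ratio of 11.7 (3 to 100), from 2 unscaled untagged reads. The clusters at 3459 to 3484 and 3491 to 3516 had the highest listed log2 ratio in this RNA, 3.46. Against 0 untagged reads this is set by the added 1. Each had a depth-adjusted ratio of 2.22 when the untagged reads were set to a floor of 3 unscaled reads per cluster. This value allows for no counting error in the tagged reads. The exact interval allows for it and began at 1.49. The median log2 ratio of mt-Nd1 was 2.52 (range 1.28 to 3.46), and 3 of its 8 clusters had 0 untagged reads.

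mt-Nd2 held 4 clusters, all between 47.2% and 74.5% of the length of the gene. The tagged and scaled untagged reads were 21 and 3 at positions 4391 to 4416, 7 and 0 at 4576 to 4619, 12 and 2 at 4645 to 4670, and 12 and 2 at 4675 to 4700. The cluster with the most reads had a depth-adjusted ratio of 7 (1.71 to 61.5). The cluster at 4576 to 4619 had the highest log2 ratio, 3, with an interval of the depth-adjusted ratio that began at 0.96. The log2 ratios of the 4 clusters lay between 2.12 and 3, all above those of every ribosomal cluster but the one at 1659 to 1684.

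mt-Co1 held the messenger cluster with the most reads, 64, and had the lowest median ratio of the 3 messenger RNAs, while its median of 13 tagged reads was close to the 14 of mt-Nd1 and the 12 of mt-Nd2. Its tagged and scaled untagged reads were 6 and 0 at positions 5478 to 5503, 64 and 26 at 5537 to 5562, and 13 and 0 at 5615 to 5640. They were 40 and 18 at 5771 to 5796, and 13 and 5 at 6329 to 6354. The cluster with 64 reads had a depth-adjusted ratio of 2.51 (1.45 to 4.57) and the one with 40 reads had 2.22 (1.14 to 4.65). Between them lay the cluster with the highest log2 ratio on the mitochondrial genome, 3.81, with 13 tagged reads and 0 untagged. Against the same floor its depth-adjusted ratio was 2.89, and its exact interval began at 2.03. The median log2 ratio of mt-Co1 was 1.27, below the 2.52 of mt-Nd1 and the 2.29 of mt-Nd2, but the 5 values ran from 1.11 to 3.81 and covered those of both. The cluster at 6329 to 6354 sat at the listing limit, with a ratio of 2.89 (0.793 to 15.8).

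Other plus-strand positions held 15 tagged-list clusters, with 5 to 25 tagged reads (median 12), 0 to 9 scaled untagged reads and a median log2 ratio of 2 (range 1.15 to 3.32). Names for these come from the RefSeq annotation of GRCm38, in which the boundaries of all 5 named genes are the same as those used here. By it, 3 lay in ND4 and 6 in ND5, which encode further subunits of complex I, and 5 in CYTB, which encodes cytochrome b of complex III. The remaining 1, at positions 13900 to 13925, lay on the strand opposite ND6. The median log2 ratios were 2 in ND4, 2.02 in ND5 and 1.87 in CYTB, with ranges that overlapped. The clusters with the most reads, 25 each, were in CYTB at 14975 to 15013 and 15080 to 15157, against 5 and 9 scaled untagged reads. The highest log2 ratio, 3.32, was in ND4 at 11495 to 11520, with 9 tagged reads against 0.

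The minus strand held 6 tagged-list clusters, and the midpoints of all 6 lay in ND6, the complex I subunit gene that is read from this strand. The first, at positions 13541 to 13566, also overlapped the end of ND5 on the other strand. They held 6 to 13 tagged reads against 0 to 2 scaled untagged reads, with log2 ratios of 2 to 3.46 (median 2.52). The cluster with the most reads, at 13879 to 13904, had 13 against 2 and a depth-adjusted ratio of 8.66 (1.3 to 368). The cluster with the highest ratio, at 13816 to 13841, had 10 against 0. Clusters thus lay on ND6 in its sense direction, with read numbers like those of the plus-strand messenger RNAs.

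Of the 37 genes of the mitochondrial genome, 9 held a tagged-list cluster by midpoint. These were both ribosomal RNA genes, 7 of the 13 protein-coding genes and 0 of the 22 tRNA genes. The untagged list had clusters in 1 gene, mt-Rnr2. The 6 protein-coding genes with 0 clusters were COX2, ATP8, ATP6, COX3, ND3 and ND4L, and only tRNA genes lay between them. They fell in the longest plus-strand stretch between tagged-list clusters, positions 6355 to 11131, which is 4777 nt long. The next longest between clusters that follow each other in position, in ND5, was 1048 nt. The stretch from the last plus-strand cluster, ending at 15157, over the start of the numbering to the first, at 334, was not measured. The stretch also took in the end of mt-Co1 and the start of ND4. The RefSeq table lists a pseudogene on chromosome 1, Gm10925, with mt-Atp6 among its synonyms. How reads that match both a mitochondrial gene and a nuclear copy were treated is not given in the sources used here, and the part of such copies in this stretch was not tested. A gene with 0 listed clusters may still have reads in both libraries, since the lists hold only clusters that differ between them.

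The share of a cluster's reads at its highest position was not used to choose the RNAs compared here. Whether the authors' cluster calling used it is unknown. This share was available for 53 of the 55 tagged-list clusters. Its median was 30.5% on the ribosomal RNAs (range 9.22% to 65.8%) and 41.5% on the messenger RNAs (16.7% to 61.5%), with intervals of the medians, 20% to 44.7% and 23.8% to 50%, that overlapped. Over the whole tagged list it was 42.9%. At 100 or more reads it was 27.1% for the 12 ribosomal clusters and 54.7% for the 195 clusters off the mitochondrial genome. Among the messenger RNAs mt-Co1 had the highest median, 50% (43.8% to 61.5%), against 30% in mt-Nd1 and 33.4% in mt-Nd2. The lowest share was at positions 1234 to 1259 of mt-Rnr2, where 9.22% of 206 reads lay at the highest position, and the highest on a ribosomal RNA was 65.8% of 219 reads at 334 to 359 of mt-Rnr1.

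**Figure D4:**
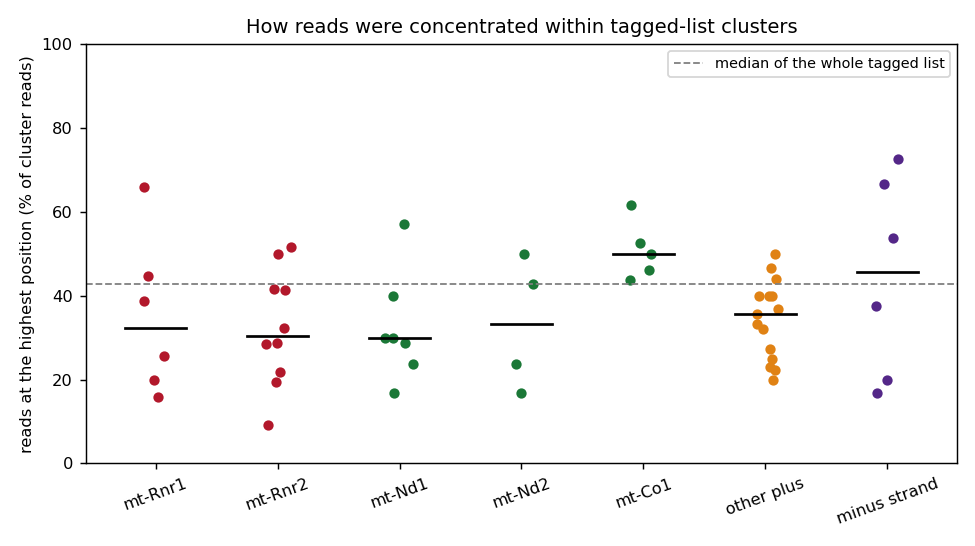
Reads at the highest position as a percentage of the reads of the cluster (vertical axis) for tagged-list clusters, by RNA. Points are clusters, black lines medians, and the dashed line the median of the whole tagged list, 42.9%. Most groups spread over a wide range around their medians, and the 5 clusters of mt-Co1 all lie at or above 43.8%.

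The authors name clusters by region class, whose letters are not explained in the sources used here. Region C2 was the only class named at 16 of the 17 ribosomal clusters (94.1%) and at 10 of the 17 messenger clusters (58.8%), against 42% of the whole tagged list. Region B was the only class at 1 ribosomal cluster, which was the one of mt-Rnr2 with the highest ratio, and at 4 messenger clusters, against 49.1% of the list. All 5 untagged-list clusters of mt-Rnr2 were of class C2, a class that 109 of the 1134 untagged-list clusters carried alone.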

How the data were processed

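The authors deposited 1 list of read clusters per library, each enriched over the other library, with counts of reads at the highest position and joined values that include a log2 ratio and a p-value. The lists have no header, so these meanings were read from the values. Per the submitters' processing notes the build was mm9. Neither the aligner nor the cluster caller nor how PCR duplicates were handled is given in the sources used here.

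For each cluster the whole number of other-library reads was sought that gave back the listed ratio (within 0.006) and p (within 0.0001, or for smaller p within 0.001 of its own size). It was found for 100% of clusters in both lists. At 59 of the 60 mitochondrial clusters 1 number did so, and at positions 334 to 359 both 153 and 154 did, of which 153 is also a multiple of the depth factor. In simulated data modelled on the tagged list (10954 clusters), 100% were found again, which tests the arithmetic but not what the deposited values mean. The depth factor is the midpoint of 1.5 to 1.5017, the range in which tagged-list values with 1 solution are its rounded multiples. The share at the highest position was taken where a position is listed and both deposited columns give the same reads there.

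The members and gene lists were chosen with earlier results of these data known. In each RNA, the clusters with the most reads and the highest log2 ratio were described with their intervals. Others described that way were chosen after their values were seen. Alternatives were a stricter p, a read minimum, merging of close clusters, whole inclusion in the gene, ratios without the added 1 and ratios without the depth factor. Python 3.11.15, numpy 2.4.6, scipy 1.17.1 and pandas 2.3.3 were used.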

Additional observations from a re-analysis of the deposited data

How the results depend on the processing

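Under the alternatives, 44 of 64 values kept within 1.5 times the count or inside the 95% interval of the reported median or share. The other 20 did not. Whole inclusion in the gene removed no cluster, and the read minimum removed no ribosomal cluster, so those values could not move. A change of sign was not possible, because counts and shares cannot be negative and listed log2 ratios were selected as positive. With a p of at most 0.001, clusters on the 5 RNAs numbered 16 in place of 34, and the messenger median log2 ratio was 3.17. With at least 20 reads, the median of messenger reads was 28 and the share of mitochondrial clusters with a log2 ratio of at least 1 was 52%. At this minimum 0% (0 of 25) had 0 untagged reads. The limit of up to 12% that goes with 0 of 25 would hold only for independent clusters, which these are not. Fewer clusters entered at this minimum by construction. Merging within 50 nt left 17 clusters on the 5 RNAs. Without the depth factor the ribosomal median was 1.26 and the share with a log2 ratio of at least 1 was 92.7%, since untagged reads are then lower by construction. The ribosomal median log2 ratio stayed below the messenger one under all 6 alternatives. All of them use clusters selected by these same reads and ratios, so this order is a description and not independent support. Ratios without the factor were not run for the untagged list, where it could not be read. No paired analysis was possible because there is only 1 library in each group.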
